A study of Mus musculus with 4 samples.

Results

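The collagen chains of mouse quadriceps, the large muscle of the thigh, were compared between mice with and without a working vitamin D receptor. The chains were chosen by symbol: protein-coding genes written as Col, a number, the letter a and a number, with Col2a1, Col10a1 and Col12a1 left out. This gave 41 of the 55573 gene identifiers in the count files, of which 10 are fibrillar chains, 8 are basement membrane chains and 23 are other collagens. The study's title places the work in vitamin D signalling and the choice of fuel by muscle. WT libraries came from C57BL/6J mice and knockout libraries from the strain B6.129S4-Vdrtm1Mbd/J, in which the gene of the receptor (Vdr) is disrupted in the germ line. Both groups were weaned at 21 days, fed regular chow without restriction and sampled at 7 weeks, and each has 2 libraries made from total RNA of whole muscle. The labels do not say that the libraries of a group came from separate animals, so each p-value reflects the spread of these libraries alone, and that spread may be technical.

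Collagens are triple helices of chains that share a repeating glycine-rich sequence. Fibrillar collagens, led by types I and III, form the tensile fibres of the connective tissue around muscle fibres and bundles, and type V helps set the width of those fibres. Type IV forms the sheet-like network of the basement membrane that wraps each muscle fibre and capillary, and type VI forms beaded filaments between this membrane and the fibrils. Most muscle collagen is made by fibroblasts of the interstitium, with further contributions from vessel, nerve and tendon cells.

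Depth and composition touch several values below. WT libraries 1 and 2 held 10789025 and 13031553 counts, and knockout libraries 1 and 2 held 21336982 and 11206474, so that 1 CPM (a counts-per-million unit) was worth 10.55 to 21.04 counts. Genes were tested with edgeR and called where the p adjusted by the Benjamini-Hochberg method was below 0.05, which held for 265 of the 13076 tested genes (2.03%). Xist, which is transcribed from the inactive X chromosome of females, had 183 and 217 CPM in WT against 0 and 0.256 CPM in the knockout. The Y-linked gene Uty had 1.04 and 0 CPM in WT against 18.9 and 15.9 CPM in the knockout. Every difference between genotypes is therefore also one between the sexes of the libraries, and the effects of the 2 cannot be told apart. Counts of Vdr were 5 and 0 for WT, then 5 and 1 for the knockout, too few to check the labels. Markers of muscle fibres summed to between 58998 and 64352 CPM in all libraries, and 0 of the 7 were called (Myh1 and Acta1 had the smallest p-values, at log2 -0.20 and -0.10). Fat cell markers summed to 573 and 660 CPM in WT and to 2894 and 2379 CPM in the knockout, and Adipoq, Cfd, Cidec, Plin1 and Retn, 5 of the 6, were called higher (log2 1.57 to 2.23). Bone markers summed to 68.6 CPM in knockout 1 and to 7.49 to 11.3 CPM elsewhere, and cartilage markers to 20.9 CPM in knockout 1 and to 3.41 to 4.95 CPM elsewhere. In tissue of mixed cells, fewer cells of a type and less RNA per cell cannot be told apart.

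The summed collagen message overlapped between the genotypes, and 2 single chains of low or moderate level were called. These are 2 of the 37 chains that passed the filter on low counts. Col6a5, a chain of type VI, was higher in the knockout, and Col8a1, a chain of the short-chain type VIII, was lower. The 2 calls are 5.41% of the tested chains, beside 2.03% of all tested genes, made up of 211 higher (1.61%) and 54 lower (0.413%). In 14 tested chains (37.8%) the groups did not overlap, both knockout libraries lying above (6 chains) or below (8 chains) both WT libraries, beside 44.7% of all tested genes. An unadjusted p below 0.05 was found for 6 chains, beside 14.0% of all tested genes. The median log2 fold change over the tested chains was -0.09, with 13 chains positive and 24 negative, beside -0.0007 over all tested genes. It ranged from -0.19 without knockout replicate 2 to -0.011 without knockout replicate 1.

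The summed level of all 41 chains was 6369 and 7130 CPM in WT against 6400 and 7138 CPM in the knockout. The genotypes overlapped, and the log2 ratio of the group means was 0.00 (exact two-sided permutation test, p = 0.667; the smallest p that 2 against 2 libraries can give is 0.333). On the CPM scale, which rests on scaled library sizes and not on raw totals, collagen took between 0.637 and 0.714% in the 4 libraries. The summed fibrillar chains stood at 4829 and 5319 CPM in WT against 5084 and 5374 CPM in the knockout. The summed basement membrane chains stood at 677 and 829 CPM in WT against 517 and 756 CPM in the knockout, with knockout 1 the lowest library. The other collagens summed to 863 and 982 CPM in WT against 798 and 1008 CPM in the knockout.

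**Figure D1:**
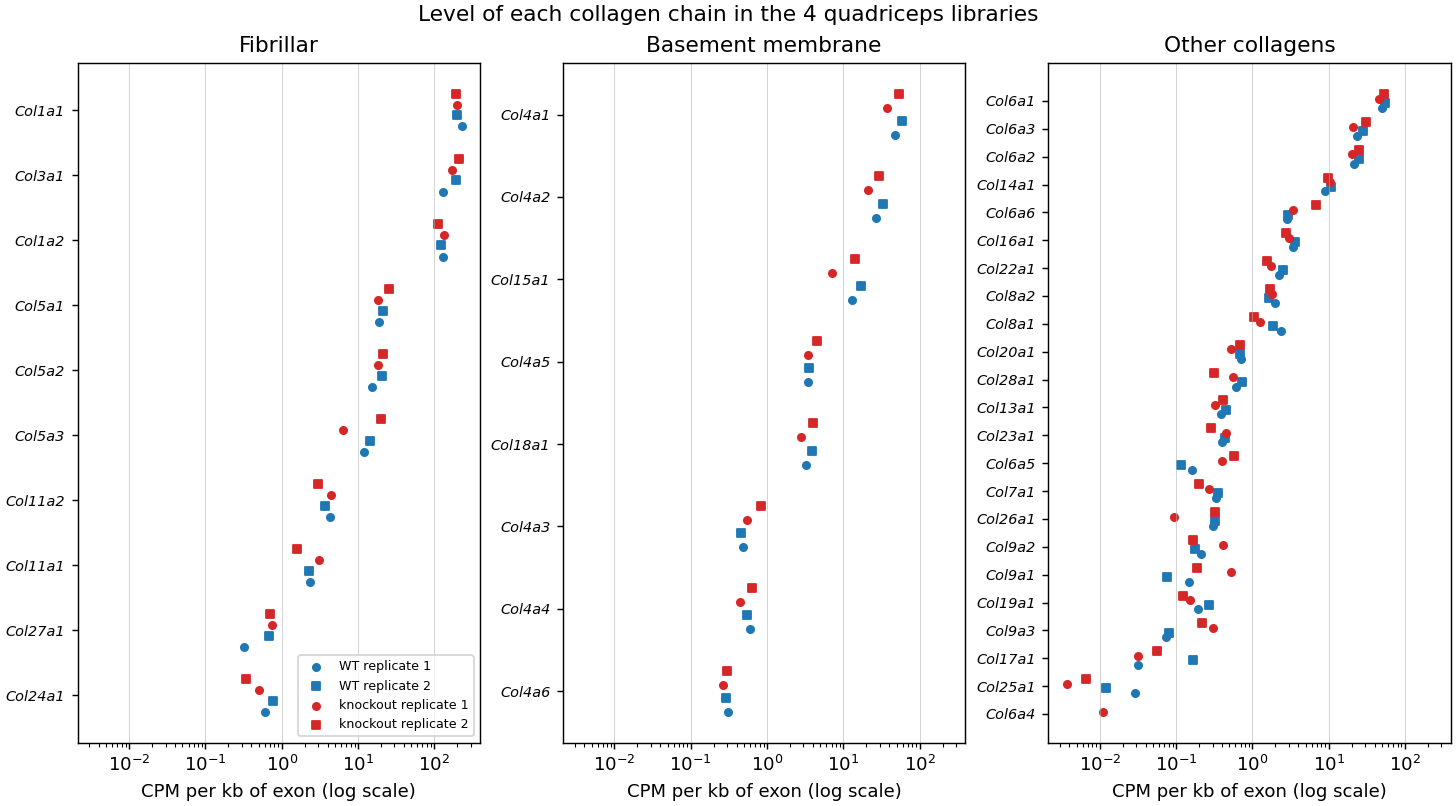
Level of each collagen chain in the 4 libraries, in CPM per kilobase of exon on a log axis, with chains grouped as fibrillar, basement membrane and other; a library with 0 counts has no point. Circles are replicate 1 and squares replicate 2, and knockout (red) and WT (blue) points interleave for Col1a2, Col6a1 and Col6a3 but separate for Col6a5 and Col8a1.

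Fibrillar chains made up most of the message, led by Col1a1, Col3a1 and Col1a2 at 205, 177 and 125 CPM per kilobase of exon on average over the 4 libraries. The order of these chains depends on the length used. Per kilobase of the longest transcript it was Col3a1, Col1a2 and Col1a1, at 312, 290 and 227 CPM. Per kilobase of annotated exon, types I and III took 62.2 to 67.9% of the collagen level across the 4 libraries, and 69.5 to 74.6% when the longest transcript was used as the length. None of the 10 fibrillar chains was called, and their median log2 fold change was 0.02 (-0.015 without WT replicate 1, 0.08 without WT replicate 2). The groups did not overlap for 3 of the 10 (30%, beside 44.7% of all tested genes). Col1a1 and Col1a2 encode the chains of type I. Col1a1 stood at 1497 and 1321 CPM in WT and at 1295 and 1278 CPM in the knockout. Both knockout libraries were below both WT libraries, by a small margin: the log2 fold change was -0.13 ± 0.13 (SE), with a 95% interval of -0.43 to 0.17 (adjusted p = 0.743). Col1a2 stood at 1598 and 1536 CPM in WT and at 1666 and 1396 CPM in the knockout, which overlap (log2 fold change -0.03 ± 0.14, adjusted p = 0.953).

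Col3a1, the single chain of type III, stood at 1279 and 1916 CPM in WT and at 1663 and 2093 CPM in the knockout. The gap between its WT libraries was wider than the fitted difference between genotypes (log2 0.23 ± 0.20, adjusted p = 0.685), and the groups overlapped. Col5a1 and Col5a2, the main chains of type V, followed a similar course. Col5a1 stood at 159 and 183 CPM in WT and at 156 and 213 CPM in the knockout (log2 0.11 ± 0.16). Col5a2, which lies 24.6 kb from Col3a1 on chromosome 1, stood at 147 and 196 CPM in WT and at 176 and 204 CPM in the knockout (log2 0.15 ± 0.16). Neither type V chain separated the genotypes.

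Col5a3 encodes the less common chain of type V, and its knockout libraries lay far apart. Its level was 81.5 and 97.7 CPM in WT against 43.1 and 137 CPM in the knockout. The knockout libraries lay on either side of the WT pair, 3.19-fold apart, so the fitted log2 fold change was 0.00 with an SE of 0.77. Without knockout replicate 2 it was -1.05 (adjusted p = 0.0167), and without knockout replicate 1 it was 0.61 (adjusted p = 0.134). In these and the other fits that leave out a library, the group left with 1 library is assumed to vary like the other group. The ratio of Col5a3 to Col5a1 counts showed the same split, at 0.513 and 0.535 in WT and at 0.276 and 0.644 in the knockout.

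The remaining fibrillar chains were at low or moderate levels. Col24a1 stood at 4.64 and 5.93 CPM in WT and at 3.80 and 2.56 CPM in the knockout. Both knockout libraries were below both WT libraries, but the difference did not pass the test (log2 -0.70 ± 0.27, adjusted p = 0.269). Col27a1 stood at 4.17 and 8.90 CPM in WT and at 9.79 and 9.12 CPM in the knockout. WT 1 stood apart from the other 3 libraries, and the log2 fold change was 0.52 ± 0.30 (adjusted p = 0.507). The value for Col27a1 was 0.09 without WT replicate 1 (adjusted p = 0.962) and 1.18 without WT replicate 2 (adjusted p = 0.0248), which leaves the outlying library alone in its group. Col11a1, a chain of type XI, which is best known from cartilage, ranged from 20.1 to 39.8 CPM with its highest and lowest values both in the knockout.

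**Figure D2:**
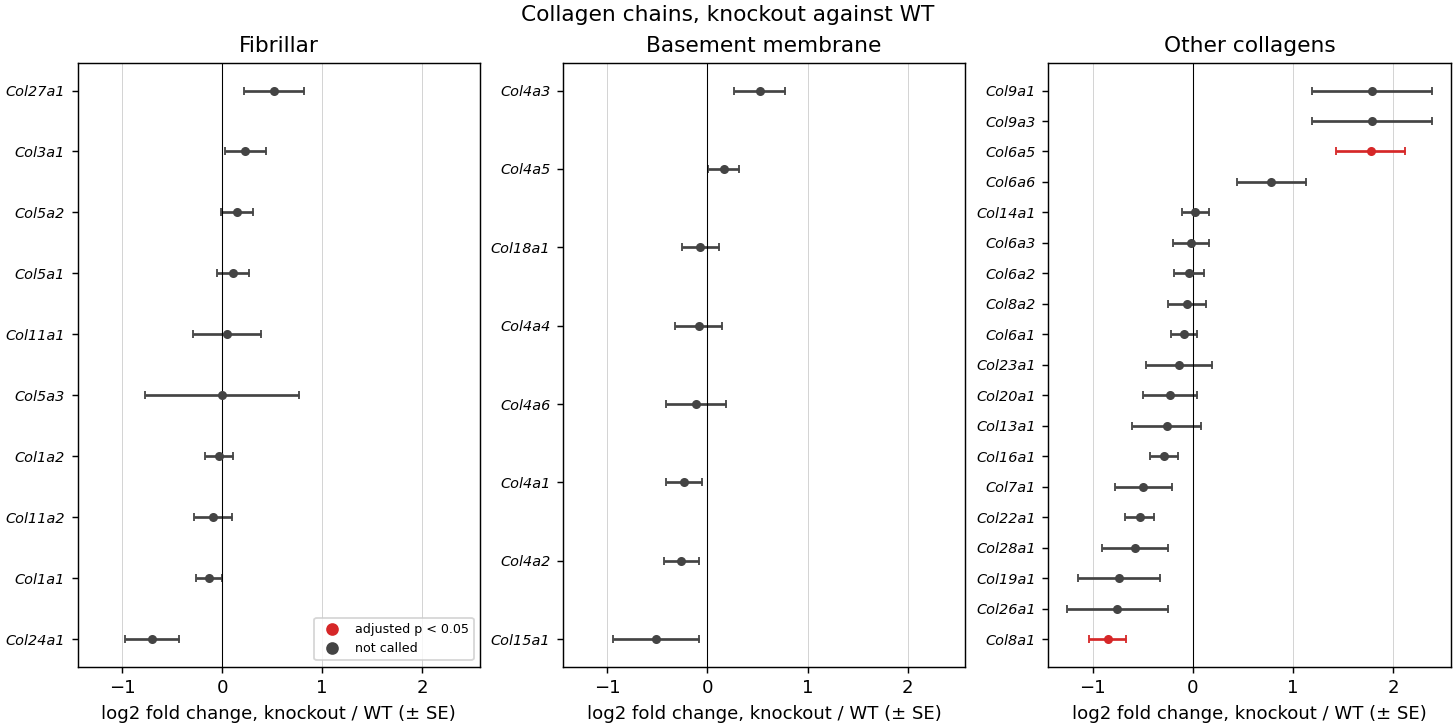
Fitted log2 fold change of each of the 37 tested chains, knockout over WT, with bars of 1 SE, by group of collagens. The 2 called chains, in red, are Col6a5 at 1.78 and Col8a1 at -0.85.

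None of the 8 basement membrane chains was called, and 6 of the 8 fold changes were negative (median log2 -0.10). The sign of this median turned with 1 library: it was 0.08 without knockout replicate 1 and -0.35 without knockout replicate 2. Col4a1 and Col4a2, which combine in the main type IV trimer, stood highest among them. Col4a1 stood at 355 and 439 CPM in WT and at 280 and 395 CPM in the knockout (log2 -0.24 ± 0.18, adjusted p = 0.627). Col4a2 stood at 180 and 218 CPM in WT and at 138 and 195 CPM in the knockout (log2 -0.26 ± 0.17, adjusted p = 0.569). For both chains knockout 1 was the lowest library and knockout 2 lay inside the WT range. The chains lie head to head on chromosome 8, and the ratio of Col4a1 to Col4a2 counts was nearly constant, at 1.97 and 2.01 in WT against 2.03 and 2.02 in the knockout.

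The minor type IV chains are also arranged in head-to-head pairs. Col4a3 and Col4a4 join Col4a5 in the trimer known from kidney and other specialised membranes. Col4a3 stood at 4.83 and 4.53 CPM in WT and at 5.37 and 8.36 CPM in the knockout. Both knockout libraries were above both WT libraries, but the difference did not pass the test (log2 0.52 ± 0.25, adjusted p = 0.408). Col4a4 stood at 6.25 and 5.77 CPM in WT and at 4.71 and 6.82 CPM in the knockout, which overlap (log2 -0.09 ± 0.24). The ratio of Col4a3 to Col4a4 counts was 0.773 and 0.784 in WT and 1.14 and 1.23 in the knockout, so the groups did not overlap (log2 difference 0.60, exact two-sided permutation test, p = 0.333, the smallest possible). This is 1 of 15 ratios between chains that were computed, of which 7 did not overlap between the groups, and the adjusted value (Benjamini-Hochberg) of each of these permutation tests was 0.714. The 2 genes start 71 bases apart. This stretch is shown because it is all the sequence that separates the starts of 2 genes whose ratio did not overlap between genotypes (GRCm38.p6, RefSeq and GENCODE gene bounds, chr1:82586850-82586920, minus strand, reading towards Col4a4). It has no capitals because none of the motifs searched below was in it, and 69% of its bases are G or C.
Col4a4-Col4a3: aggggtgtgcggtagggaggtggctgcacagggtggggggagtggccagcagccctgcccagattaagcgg

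Col4a5 and Col4a6 sit on the X chromosome, 1308 bases apart. Col4a5 stood at 23.2 and 24.0 CPM in WT and at 23.1 and 30.1 CPM in the knockout (log2 0.16 ± 0.16, adjusted p = 0.72). Col4a6, found mainly in smooth muscle membranes, stood at 2.46 and 2.34 CPM in WT and at 2.09 and 2.39 CPM in the knockout (log2 -0.12 ± 0.30). Neither level separated the genotypes. The ratio of Col4a5 to Col4a6 counts was 9.42 and 10.3 in WT and 11.0 and 12.6 in the knockout, which did not overlap. The 3 head-to-head type IV pairs are thus among the 7 of 15 computed ratios that did not overlap. Their log2 differences were 0.02 (Col4a1 to Col4a2), 0.26 (Col4a5 to Col4a6) and 0.60 (Col4a3 to Col4a4). Ratios of other gene pairs were not computed, so this cannot be called a trait of head-to-head pairs.

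Col15a1 and Col18a1 encode the multiplexins, which carry sugar chains and lie at the edge of the basement membrane; Col18a1 is the source of endostatin. Col15a1 stood at 83.2 and 109 CPM in WT and at 44.6 and 90.5 CPM in the knockout. Knockout 1 was the lowest library and knockout 2 lay inside the WT range, so the log2 fold change of -0.51 had an SE of 0.43 (adjusted p = 0.718). The value for Col15a1 was -0.09 without knockout replicate 1 (adjusted p = 0.906) and -1.10 without knockout replicate 2 (adjusted p = 0.0226). Col18a1 stood at 22.5 and 27.2 CPM in WT and at 19.5 and 28.1 CPM in the knockout (log2 -0.07 ± 0.18).

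**Figure D3:**
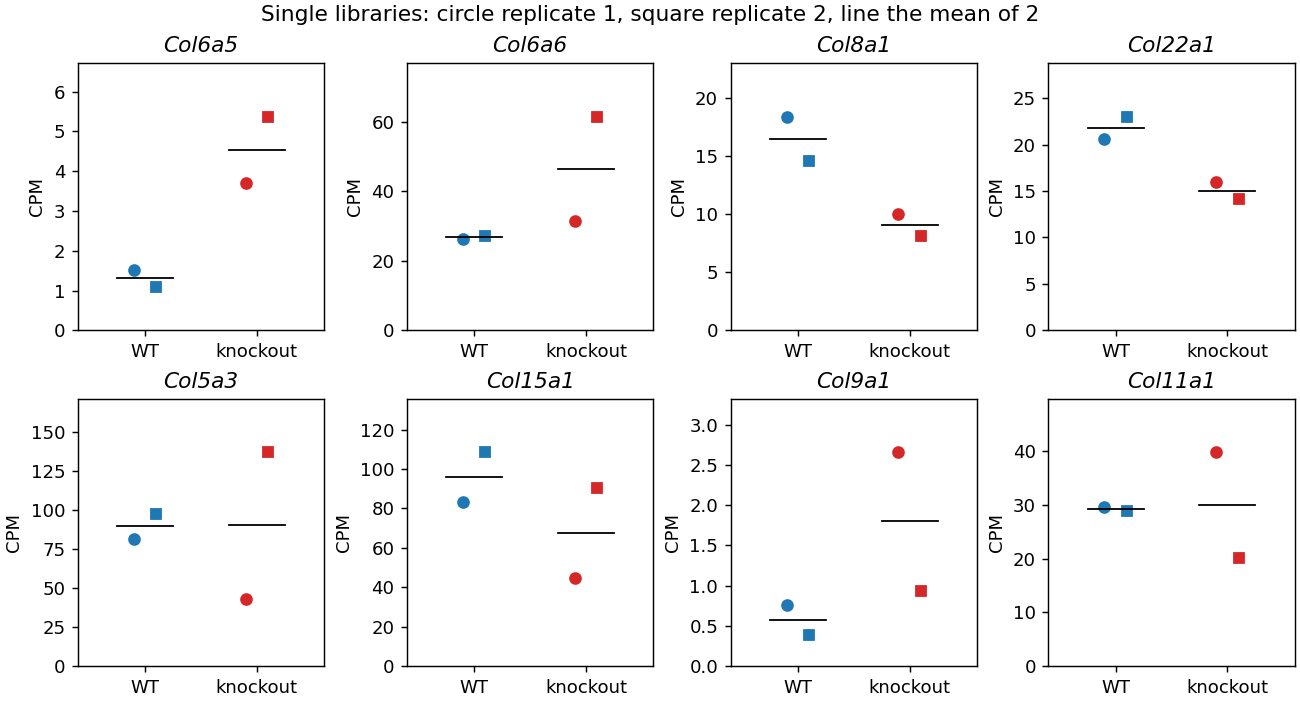
CPM of 8 chains in each library, 1 panel per chain, with circles for replicate 1, squares for replicate 2 and a line at the mean of each genotype. In the panels of Col5a3 and Col15a1 the knockout points are 3.19-fold and 2.03-fold apart, whereas those of Col8a1 lie together below WT.

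The other collagens held both calls. Of 19 tested, 10 did not overlap between the groups (52.6%, beside 44.7% of all tested genes), and the median log2 fold change was -0.14. The 10 include Col9a1 and Col9a3, which passed the filter only through the knockout libraries. Type VI filaments are built from Col6a1 and Col6a2 with 1 further chain, most often Col6a3 and otherwise Col6a4, Col6a5 or Col6a6. Col6a1 stood at 218 and 240 CPM in WT and at 201 and 230 CPM in the knockout (log2 -0.09 ± 0.13). Col6a2 stood at 177 and 208 CPM in WT and at 166 and 210 CPM in the knockout (log2 -0.04 ± 0.15). Col6a3 stood at 285 and 338 CPM in WT and at 250 and 367 CPM in the knockout (log2 -0.02 ± 0.18). All 3 main chains overlapped between the genotypes.

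The alternative chains lie in a row on chromosome 9, with Col6a6, Col6a5 and Col6a4 on the same strand and gaps of 27.9 and 28.8 kb. Col6a5 (ENSMUSG00000091345, GRCm38 chr9:105856078-105960643, minus strand) stood at 1.52 and 1.09 CPM in WT (16 and 14 counts) and at 3.71 and 5.37 CPM in the knockout (78 and 63 counts). The groups did not overlap, and the chain was 3.43-fold higher in the knockout (95% interval 2.02 to 5.81; log2 1.78 ± 0.34, adjusted p = 0.028). Without WT replicate 2 the log2 value was 1.54 (adjusted p = 0.0764) and without knockout replicate 2 it was 1.52 (adjusted p = 0.0884), so the call was lost without either of these libraries. In the knockout, Col6a5 had 0.0148 and 0.0146 counts for each count of Col6a3, against 0.00531 and 0.00323 in WT.

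Col6a6 stood at 26.4 and 27.2 CPM in WT and at 31.5 and 61.6 CPM in the knockout. The groups did not overlap, but knockout 2 was 1.96-fold above knockout 1 and the difference did not pass the test (log2 0.79 ± 0.35, adjusted p = 0.444). It was 0.23 without knockout replicate 2 (adjusted p = 0.561) and 1.20 without knockout replicate 1 (adjusted p = 0.00286). Counts of Col6a6 per count of Col6a3 were 0.0926 and 0.0802 in WT and 0.126 and 0.168 in the knockout, which did not overlap (exact two-sided permutation test, p = 0.333, the smallest possible). Col6a4 had 0 counts in 3 libraries and 2 in knockout 1; 0 counts allow up to 0.284, 0.234 and 0.256 CPM in WT 1, WT 2 and knockout 2, for counting error alone. The summed fat cell markers given above were also higher in both knockout libraries, as were 23.0% of all tested genes. Within the knockout their sum was higher in knockout 1 (2894 against 2379 CPM), whereas Col6a5 and Col6a6 were higher in knockout 2. The part of fat cells in the levels of Col6a5 and Col6a6 was not tested.

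Type VIII has 2 chains, known from the walls of vessels and the membrane under the corneal endothelium. Col8a1 (ENSMUSG00000068196, GRCm38 chr16:57624258-57754737, minus strand) stood at 18.4 and 14.6 CPM in WT (194 and 187 counts) and at 9.98 and 8.10 CPM in the knockout (210 and 95 counts). The groups did not overlap, and the knockout level was 55.4% of WT (95% interval 41.9 to 73.3%; log2 -0.85 ± 0.18, adjusted p = 0.0427). The call was lost without WT replicate 1 (-0.68, adjusted p = 0.199), without knockout replicate 1 (-1.03, adjusted p = 0.052), without knockout replicate 2 (-0.72, adjusted p = 0.15) and with DESeq2 (-0.86, adjusted p = 0.0656). Col8a2 stood at 9.00 and 7.41 CPM in WT and at 8.08 and 7.59 CPM in the knockout (log2 -0.06 ± 0.19, adjusted p = 0.937). Counts of Col8a1 per count of Col8a2 were 2.04 and 1.97 in WT and 1.24 and 1.07 in the knockout, which did not overlap (log2 difference -0.80, exact two-sided permutation test, p = 0.333, the smallest possible). This ratio is 1 of the 7 of 15 that did not overlap. It rests on the same Col8a1 counts as the call and adds no separate evidence. Markers of vessel cells stood beside the level of Col8a1 as follows: the 8 endothelial markers summed to 196 and 226 CPM in WT against 192 and 187 CPM in the knockout. The 8 markers of pericytes and smooth muscle summed to 667 and 642 CPM in WT against 558 and 495 CPM in the knockout. In each list 6 fold changes were negative and 2 positive, with medians of -0.20 for endothelium and -0.08 for pericytes and smooth muscle. The smallest p-values of the lists belonged to Cdh5 and Tie1 (log2 -0.41 and -0.35) and to Rgs5 and Abcc9 (-0.47 and -0.29). Among the positive ones, the endothelial marker Kdr was at 0.28, with both knockout libraries above WT. No marker of either list was called, none was at 0 in WT, and their part in the level of Col8a1 was not tested.

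**Figure D4:**
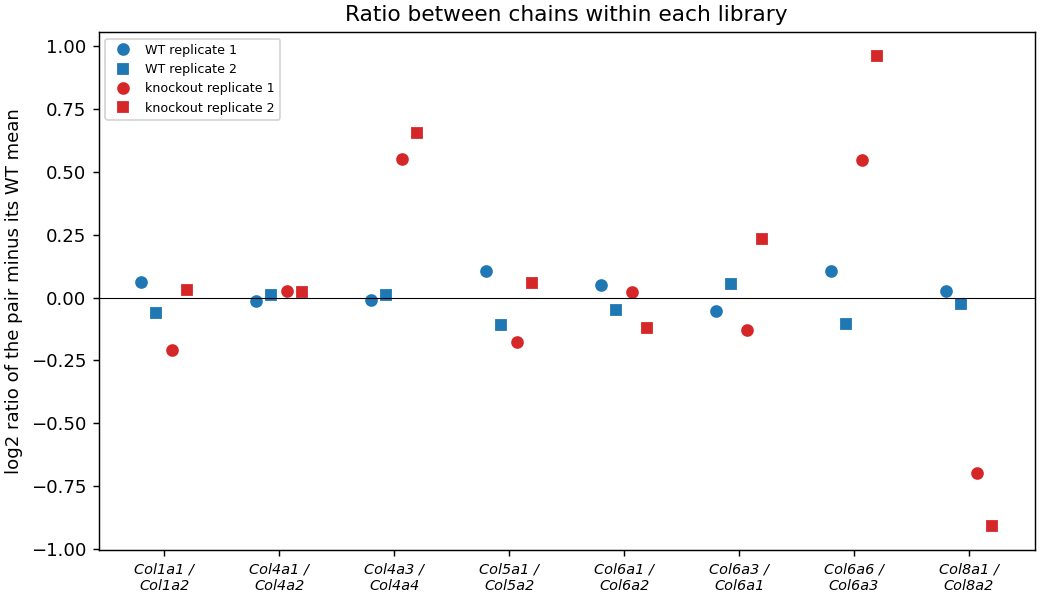
Ratio of counts between 8 pairs of collagen chains in each library, as log2 ratio minus the mean of the WT libraries for that pair. The points of Col4a1 to Col4a2 lie on 1 level, at ratios of 1.97 to 2.03, with the knockout points just above the WT points; Col4a3 to Col4a4 and Col6a6 to Col6a3 lie higher in the knockout, and Col8a1 to Col8a2 lower.

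The bases just before the starts of the 2 called chains are shown so that their letters can be set beside their opposite changes. Each line gives the 250 bases before the gene's start, 5′ to 3′ on the gene's own strand, from RefSeq (GRCm38.p6): chr9:105960644-105960893, minus strand, for Col6a5 and chr16:57754738-57754987, minus strand, for Col8a1. Each stretch lies just outside the annotated bounds of its own gene. Capitals mark matches to a searched motif on either strand, which are 1 GC box and 1 nuclear receptor half-site for Col6a5 and 4 GC boxes for Col8a1.
Col6a5: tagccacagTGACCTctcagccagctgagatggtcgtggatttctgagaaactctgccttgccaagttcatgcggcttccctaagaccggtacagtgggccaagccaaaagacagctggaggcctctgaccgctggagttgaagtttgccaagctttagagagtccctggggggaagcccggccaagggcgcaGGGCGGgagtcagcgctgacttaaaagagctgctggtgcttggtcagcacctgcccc
Col8a1: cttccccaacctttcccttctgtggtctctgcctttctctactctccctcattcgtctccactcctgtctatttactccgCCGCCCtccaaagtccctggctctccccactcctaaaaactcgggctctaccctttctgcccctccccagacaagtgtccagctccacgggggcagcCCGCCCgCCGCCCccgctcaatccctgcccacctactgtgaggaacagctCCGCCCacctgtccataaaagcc

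The motifs searched were the CCAAT box (CCAAT), the TATA box (TATAAA), the GC box (GGGCGG), the nuclear receptor half-site (AGGTCA), 2 of those half-sites in the same direction spaced by 3 bases (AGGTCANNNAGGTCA, which holds 2 half-sites) and the E box (CACGTG), each on both strands. The search covered the 250 bases before each start in the table of RefSeq promoters, which held 34 of the 41 chains. A GC box was found for 21 of the 34 chains (61.8%) and in 32.7% of all 32851 windows. The 2 shares differ in kind: a chain counts if any of its windows holds a match, and the background counts single windows. A half-site was found for 8 chains (23.5%), among them Col6a5, Col24a1, Col9a1 and Col4a4, and in 14% of all windows. The spaced pair, the arrangement to which the vitamin D receptor binds with its partner RXR, was in 0 windows of chains and in 0.00609% of all windows. CCAAT was found for 13 chains (38.2%) beside 33.8% of all windows, TATAAA for 4 (11.8%) beside 12.4%, and CACGTG for 0 beside 6.02%. These matches are descriptions of letters in short windows and say nothing of binding.

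Among the fibril-associated collagens, which sit on the surface of fibrils, Col22a1 marks the junction between muscle and tendon. It stood at 20.6 and 23.0 CPM in WT and at 15.9 and 14.2 CPM in the knockout. Knockout and WT did not overlap (log2 -0.53 ± 0.15, 95% interval -0.86 to -0.21), but the adjusted p was 0.114. The 8 tendon markers summed to 592 and 476 CPM in WT and to 471 and 323 CPM in the knockout. All 8 had negative fold changes, with a median of -0.48 and the smallest p-values for Scx (-0.94, adjusted p = 0.144) and Thbs4 (-0.49, adjusted p = 0.167), none was called, none was at 0 in WT, and their part in the level of Col22a1 was not tested. Col14a1, the highest of the fibril-associated chains, stood at 63.0 and 75.5 CPM in WT and at 72.1 and 69.1 CPM in the knockout (log2 0.03 ± 0.13). Col16a1 stood at 23.1 and 24.3 CPM in WT and at 20.5 and 18.3 CPM in the knockout, with no overlap (log2 -0.29 ± 0.14, adjusted p = 0.406).

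The chains of type IX, a partner of cartilage fibrils, were near the lower end of detection. Col9a1 had 8 and 5 counts in WT against 56 and 11 in the knockout, or 0.758 and 0.390 CPM against 2.66 and 0.938 CPM. Col9a3 had 3 and 4 counts in WT against 25 and 10 in the knockout, or 0.284 and 0.312 CPM against 1.19 and 0.853 CPM. Both chains were under the minimum count of 10 in WT, so they passed the filter only through the knockout libraries, where they were high. They are still among the 37 tested chains, the 6 lying above WT and the 6 with an unadjusted p below 0.05. Knockout 1 was the highest library for both, and each had a fitted log2 fold change of 1.79 ± 0.60 that did not pass the test (adjusted p = 0.2). Without knockout replicate 1, the value was 0.73 for Col9a1 and 1.47 for Col9a3. Knockout 1 is also the library with the highest bone and cartilage markers. Ibsp, a bone matrix protein, stood at 0.095 and 0 CPM in WT and at 39.2 and 3.15 CPM in the knockout. With 1 and 0 counts in WT, it too passed the filter only through the knockout libraries. Acan, the large proteoglycan of cartilage, stood at 0.569 and 0.858 CPM in WT and at 11.9 and 2.47 CPM in the knockout. Of the 7 bone markers, Bglap was at 0 in both WT libraries, and of the 6 cartilage markers none was. Spp1 and Matn3, the other markers with the smallest p-values, had log2 values of 2.19 ± 1.20 and -0.45 ± 0.59. The part of these tissues in the type IX counts was not tested. Col9a1 and Col9a3 were chosen for description after their values were seen.

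The other tested chains were low and uncalled. Col7a1, of the anchoring fibrils under epithelia, stood at 3.41 and 3.59 CPM in WT and at 2.80 and 2.05 CPM in the knockout (log2 -0.49 ± 0.28, adjusted p = 0.497). Col19a1 had 14 and 24 counts in WT against 22 and 10 in the knockout (log2 -0.73 ± 0.41), and Col28a1 had 32 and 46 counts in WT against 57 and 18 in the knockout (log2 -0.58 ± 0.33). For these 3 chains both knockout libraries were below both WT libraries in CPM. Col20a1, Col13a1 and Col23a1 lay between 1.47 and 3.70 CPM in every library and overlapped between the groups. Below the filter were Col6a4, Col25a1 (4 and 2 counts in WT, 1 and 1 in the knockout), Col17a1 (2 and 13, then 4 and 4) and Col9a2 (7 and 7, then 27 and 6).

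Many collagen chains differed between the 2 knockout libraries themselves. The median fold between knockout 1 and knockout 2 was 1.37 over the 37 tested chains and 1.15 over all tested genes. Between the WT libraries these medians were 1.17 and 1.15. The knockout libraries were at least 2-fold apart for 4 chains (10.8%), beside 3.82% of all tested genes, and the WT libraries for 1 chain (2.7%), beside 4.52%. Of the 4 chains, Col5a3, Col26a1 (3.48-fold) and Col15a1 were higher in knockout 2, and Col9a1 (2.84-fold) was higher in knockout 1. This difference in spread is given as a description, without a test.

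Levels between chains can be compared only per length, and the choice of length matters. By all annotated exon bases, Col1a1 had 1.65 times the level per kilobase of Col1a2 on average over the 4 libraries, and by the longest transcript 0.787 times. Type I protein has more Col1a1 than Col1a2 chains. Col3a1 had 0.874 times the level per kilobase of Col1a1 by exon bases and 1.39 times by the longest transcript. Col4a1 exceeded Col4a2 by either length, at 1.78 and 1.96 times.

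Genes that modify, cut, bind or accompany collagen, and those of the TGF-beta pathway, were read as 7 lists. They gave 4 calls among 89 tested members (4.49%, beside 2.03% of all tested genes). The TGF-beta list held 2 of the 4 calls and 17 of the 89 genes. All 7 lists were chosen with earlier results of these data known. Enzymes and chaperones of procollagen gave 1 call among 16 (median log2 -0.03). P4ha1, a catalytic subunit of the prolyl hydroxylase that stabilises the triple helix, stood at 72.6 and 63.5 CPM in WT and at 37.2 and 33.3 CPM in the knockout. The groups did not overlap, and P4ha1 fell by 0.95 ± 0.13 on the log2 scale (adjusted p = 0.00466). P4ha2, the alternative subunit, stood at 19.0 and 20.5 CPM in WT and at 11.8 and 14.9 CPM in the knockout, a difference that did not pass the test (log2 -0.58 ± 0.16, adjusted p = 0.119). Of 12 proteinases, enhancers and crosslinking enzymes none was called (median -0.05), and the smallest p belonged to Pcolce2 and Adamts3 (adjusted p = 0.298 and 0.342).

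Of 13 tested genes of collagen breakdown 1 was called (median 0.11). Mmp9, a gelatinase that cleaves denatured and type IV collagen, stood at 2.37 and 2.18 CPM in WT and at 8.79 and 6.05 CPM in the knockout. Both knockout libraries were above WT (log2 1.73 ± 0.27, adjusted p = 0.00953), and without knockout replicate 1 the call was lost (1.41, adjusted p = 0.0633). Mmp13, a collagenase of bone and cartilage, had 1 and 2 counts in WT, then 140 and 11 in the knockout (adjusted p = 0.293). Mmp8, the collagenase of neutrophils, had 37 counts in knockout 1 and 0 in the other 3 libraries, and was below the filter. All 3 were highest in knockout 1, the library with the highest bone and cartilage markers, and the part of those tissues in these values was not tested. Fap, a fibroblast protease, was at log2 -0.45 ± 0.15 (adjusted p = 0.214). Of 8 tested collagen receptors none was called (median -0.18), with Ddr2, a receptor kinase for fibrillar collagen, at log2 -0.40 ± 0.12 (adjusted p = 0.164) and Itgb1 at -0.30 ± 0.12 (adjusted p = 0.299). Of 14 laminins and other basement membrane proteins none was called. Their fold changes were negative for 13 of the 14 (median -0.17), beside 6550 of all 13076 tested genes. Both knockout libraries were below both WT libraries for 5 of the 14, beside 21.7% of all tested genes. Lama2, the main laminin chain of muscle, stood at 135 and 119 CPM in WT and at 101 and 113 CPM in the knockout (log2 -0.24 ± 0.13, adjusted p = 0.453), and Dag1, the dystroglycan that binds it, was at -0.19 ± 0.12 (adjusted p = 0.539). Of 9 small proteoglycans that bind fibrils none was called (median -0.29); Podn stood at 18.2 and 16.2 CPM in WT and at 28.8 and 23.4 CPM in the knockout (log2 0.61 ± 0.15, adjusted p = 0.0844) and Prelp was at -0.37 ± 0.13 (adjusted p = 0.218).

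Of 17 genes of the TGF-beta pathway, which drives collagen genes in many tissues, 2 were called, both lower (median -0.09, with 5 fold changes positive and 12 negative). Ccn2, a matrix protein and TGF-beta target, stood at 64.0 and 58.1 CPM in WT and at 33.1 and 29.4 CPM in the knockout (log2 -0.96 ± 0.13, adjusted p = 0.00409). Ltbp4, which holds latent TGF-beta in the matrix, stood at 121 and 106 CPM in WT and at 61.9 and 63.5 CPM in the knockout (log2 -0.86 ± 0.12, adjusted p = 0.00615). The knockout libraries of both genes lay below WT without overlap. None of the ligands, receptors and Smads of the list was called.

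**Figure D5:**
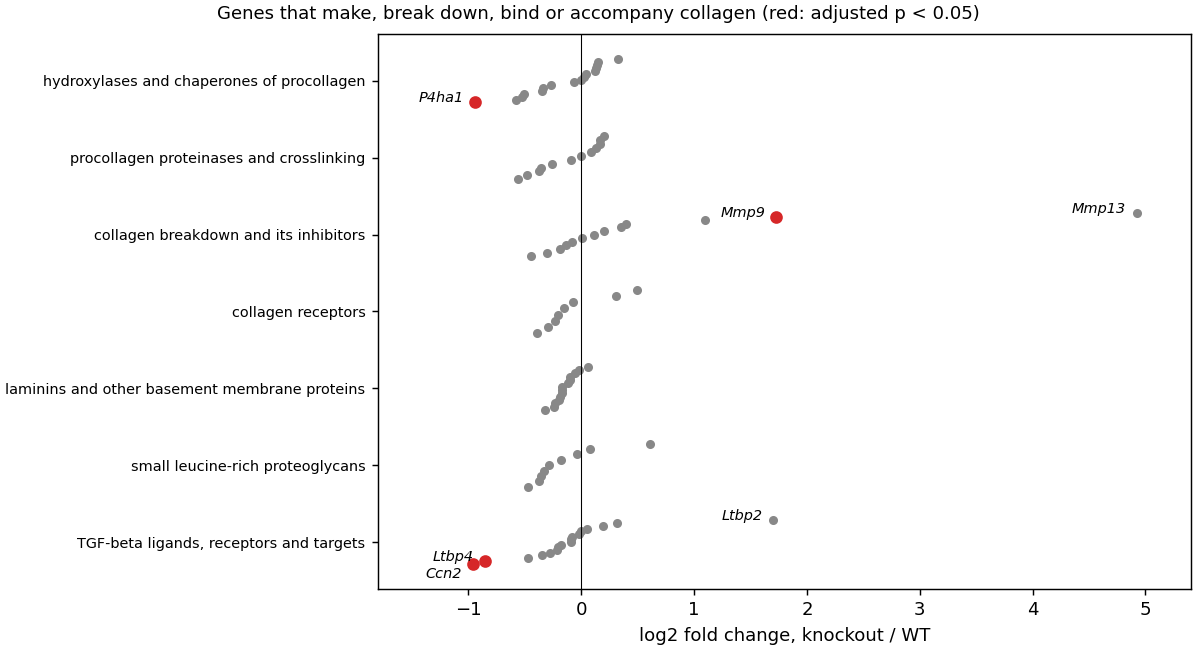
Fitted log2 fold changes, knockout over WT, of the tested genes in 7 lists, 1 row of points per list. The lists cover the making, breakdown and binding of collagen, the proteins that accompany it and the TGF-beta pathway. The called genes are P4ha1 at -0.95, Ccn2 at -0.96, Ltbp4 at -0.86 and Mmp9 at 1.73.

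Cell types that make collagen were read from their own markers. The 8 markers of interstitial fibroblasts summed to 2575 and 2101 CPM in WT and to 2883 and 2717 CPM in the knockout, with 0 called, 5 of 8 positive and a median of 0.14. Gsn alone had 1489 and 1063 CPM in WT against 1772 and 1747 CPM in the knockout, and without it the other 7 summed to 1087 and 1038 CPM in WT against 1111 and 971 CPM in the knockout, which overlap. Gsn was at log2 0.46 ± 0.17 (adjusted p = 0.234) and Pi16 at -0.55 ± 0.14 (adjusted p = 0.0833). The 8 macrophage markers summed to 293 and 345 CPM in WT against 348 and 373 CPM in the knockout, with 0 called and the smallest p-values for C1qa (log2 0.47) and C1qb (0.38). The satellite cell and neuromuscular junction lists had medians of 0.02 and 0.06, with 0 called in each. Their smallest p-values belonged to Sdc4 and Pax7 (log2 0.53 and -0.93) and Ache and Chrna1 (0.24 and -0.42).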

How the data were processed

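RNA of 4 quadriceps libraries was measured by sequencing. The deposited counts are whole reads per Ensembl gene; the submitters' processing notes name GRCm38 (mm10) as build and list Trimmomatic, STAR and DESeq2, with versions and strand setting not given in the sources used. The labels name the kit in different ways in different places, so strand was not assumed.

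Symbols and lengths came from GENCODE M21 for 55480 of the 55573 identifiers (93 were not matched). No chain shares more than 6.1% of its exon bases with another gene. Counts were tested in R 4.3.3 with edgeR 4.0.16: genes were kept by filterByExpr (minimum count 10, minimum total 15), scaled by TMM (factors 0.9797 to 1.0485) and fitted by robust quasi-likelihood, genotype being the only term. Fold changes are knockout over WT on the log2 scale, with SE taken from the F statistic, and a call is an adjusted p below 0.05. The median SE was 0.192 and the common biological coefficient of variation 13.59%. CPM use effective library sizes. The steps were tested on simulated data. The 95% intervals of fold changes come from this fit and include the spread between libraries, while limits for 0 counts (3 counts) cover counting error only.

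The members and all lists, 7 of collagen pathways and 12 of cell markers, were chosen with earlier results of these data known; 1 marker list is not reported here. Named were the called chains, the 3 smallest p-values and 3 highest levels per length of each group, the chains of types I, III, IV, V and VI, the multiplexins and, from each list, called genes and the 2 smallest p-values. Other genes and chains described beside these were chosen after their values were seen. Alternatives were other size factors, no filter, DESeq2 1.42.0, a replicate block, leaving out each library and another gene length.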

Additional observations from a re-analysis of the deposited data

How the results depend on the processing

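Direction held for Col6a5 and Col8a1 under all 10 alternatives; Col6a5 was called in 8 and Col8a1 in 6. Of 23 other chains examined this way, 19 were called in none and 4 in 1. The number of called genes was 265, and 476 without the filter (355 higher, 121 lower), 300 with DESeq2, 262 with DESeq2's size factors, 261 with factors set without ribosomal RNA and Rn7sk, and 323 with edgeR's earlier quasi-likelihood fit, the 1 alternative chosen after seeing the data. Leaving out 1 library gave 216 to 332 called genes, and 39 to 90 called lower against 54 with all, 90 being without WT replicate 1. Called chains were 2, and 1 (Col6a5) with DESeq2. Leaving out 1 library gave 1 to 2: Col6a5 without WT replicate 1, Col27a1 and Col8a1 without WT replicate 2, Col6a5 and Col6a6 without knockout replicate 1, and Col5a3 and Col15a1 without knockout replicate 2, so none of the 2 called with all libraries. The median over all tested chains ranged from -0.19 to -0.011, of the fibrillar chains from -0.015 to 0.08, of the basement membrane chains from -0.35 to 0.08 and of the other collagens from -0.21 to -0.040. Col5a3 was at 0.00 with all libraries, and from -1.05 without knockout replicate 2 to 0.61 without knockout replicate 1. With the longest transcript as length, the mean ratios were 0.787 for Col1a1 to Col1a2, 1.39 for Col3a1 to Col1a1 and 1.96 for Col4a1 to Col4a2. The cause of these shifts was not tested. The deviations of same-numbered libraries had a correlation of 0.039 over all tested genes. With 1 difference per genotype, this cannot tell whether the numbers pair the libraries, and the labels do not say. A replicate block gave 346 called genes, the same 2 chains and a fibrillar median of -0.037. Chains below about 10 counts, such as Col9a3, are limited by depth.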
